A study of Mus musculus with 12 samples.

Results

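Livers of male mice without Pml were compared with livers of male wild-type mice after 20 weeks on a high-fat diet, in which 60% of calories came from fat. Both groups held 8 mice that were fasted for 8 h before the liver was taken, and 3 liver extracts of each group were hybridised, each to its own array. These 6 arrays are set against each other here, of 12 in the whole series. The other 6 arrays hold livers of the same genotypes on a low-fat diet, where fat gave 10% of calories. Every probe set annotated to a single gene was followed, 28898 of 45141, and these stand for 17097 genes. How the Pml allele was made, the strain and the age of the mice are not given in the sources used here, and the labels do not tie an extract to 1 mouse. Any p given here thus reflects how far these extracts differ, and that spread may be in part technical.

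Pml is a tripartite motif protein that, once joined to the small modifier SUMO, assembles the nuclear bodies named after it. These bodies gather transcription regulators such as Daxx and Sp100, take part in p53 signalling and grow in number when cells meet interferon, since Pml is itself an interferon-stimulated gene. Interferons signal through Jak kinases and Stat factors. Type I interferons act mainly through interferon-stimulated response elements, which drive antiviral genes, and interferon-gamma acts mainly through gamma-activated sites, which drive GTPases, antigen presentation and the chemokines that attract T cells. Hepatocytes also make acute phase proteins, which they release into plasma in inflammation.

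All values are log2 signals, so a difference of 1 is a factor of 2. The arrays had medians from 3.94 to 4 and correlated at Pearson's r from 0.986 to 0.995 across probe sets, which are not independent replicates. A gene was tested if its mean over all arrays reached 4.08, which kept 10258 genes and left out 6839 as dim. The hepatocyte markers were bright in every high-fat liver, with a mean of 12.3 to 12.5 over 10 genes, as the tissue label has it. Albumin (Alb) lay between 13.7 and 13.8 in all 6. The precision is limited by the number of arrays, 3 a group, and the smallest p that an exact permutation of 3 against 3 can give is 0.1.

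Pml, the deleted gene, was the gene to check first. Its brighter probe set read 4.97, 5.35 and 5.38 in wild-type livers 1 to 3, against 3.42, 3.04 and 3.82 in the knockout livers in the same order. Every knockout liver lay below every wild-type liver, and all 3 lay below the floor of 4.08 of the genes tested. The fall of Pml was 3.49-fold, with a log2 change of -1.80 (SE 0.188) and a limma adjusted p of 0.00433. Since the knockout signals lie under that floor, this is a fold of array signals and gives no exact fold of the RNA. The dimmer probe set had a mean of 3.12 in wild-type and 2.90 in knockout livers. No source used here places either probe set inside or outside the deleted stretch. The signal is thus a check of the sample labels and not of how much of the gene was lost. With only the 6 high-fat arrays in the fit the limma adjusted p of Pml was 0.2.

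Pml was the 1 gene of 10258 past the threshold, or 0.00975% of the genes tested, so that no other gene named here is called changed. At an unadjusted limma p under 0.05 there were 231 genes with higher values in knockout livers (2.25% of the genes tested) and 226 with lower values (2.2%), 457 in all, where 512.9 would be expected if no gene differed. The 3 knockout values all lay above the 3 wild-type values for 679 genes (6.62%) and all below for 532 (5.19%). The median gene differed by 0.004, and 51.5% of genes had higher means in knockout livers. At least 2-fold higher means were found for 14 genes (0.136%) and at least 2-fold lower means for 17 (0.166%). These shares are the background for every count of a gene list given here, since a list near them stands no further out than the genes at large.

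**Figure D1:**
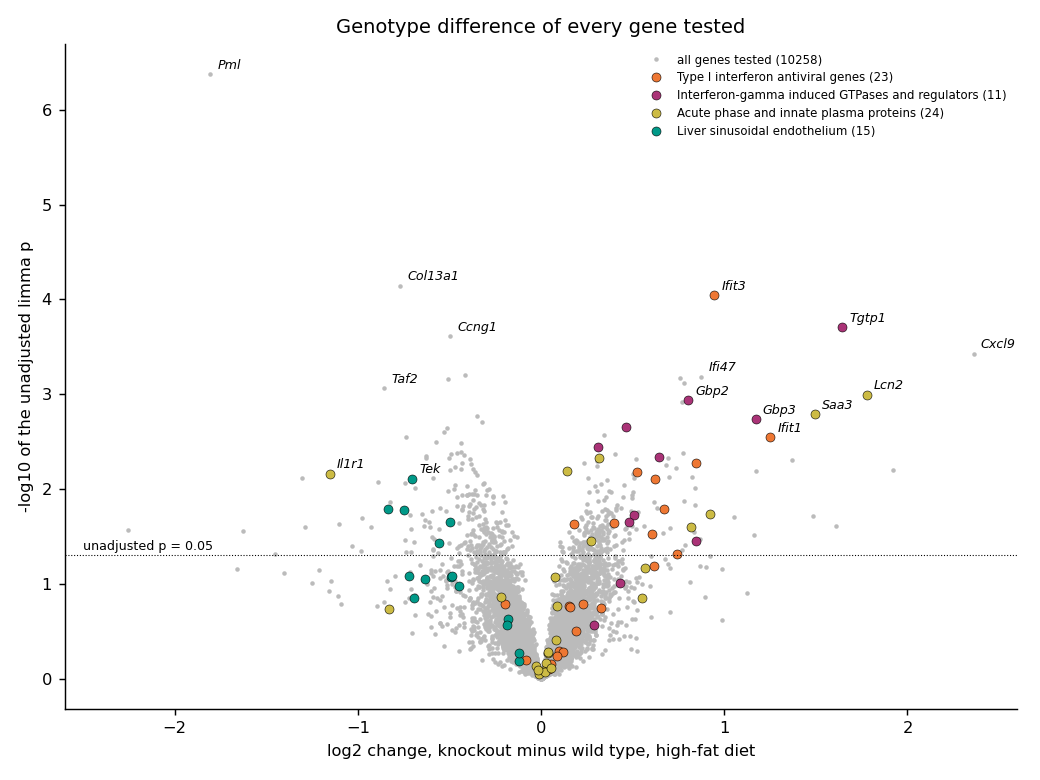
Each point is 1 of the 10258 genes tested on the high-fat diet, with the log2 difference of knockout minus wild-type means on the x axis and -log10 of the unadjusted limma p on the y axis. Pml stands alone at the top left at -1.80, the coloured interferon and acute phase members spread to the right as far as Lcn2 at 1.78, and the sinusoidal endothelial markers lie to the left.

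Other components of PML nuclear bodies had small differences. Of 16 tested members, Pml included, 4 had higher and 12 lower means, with a median of -0.09 beside 0.004 for all genes tested. In 2 of the 16 (12.5%), Pml among them, all knockout values lay below all wild-type values, beside 5.19% of all genes tested. The other one was Rb1, the retinoblastoma tumour suppressor, which read 6.72, 7.004 and 7.09 against 6.26, 6.39 and 6.69 in knockout livers (log2 difference -0.49, SE 0.141, limma adjusted p = 0.996). Rb1 was low in all 3 knockout livers, with a gap of 0.03 between the groups. Daxx, a histone chaperone of these bodies, had -0.15 with overlapping groups.

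Most genes that respond to interferon had higher means in knockout livers. The interferons read here were dim, and genes of interferon receptors and signalling had a median near that of all genes. Interferon-gamma itself (Ifng) read 2.83 to 3.18 in wild-type and 2.85 to 2.96 in knockout livers, and interferon-beta (Ifnb1) 3.29 to 3.67 and 3.41 to 3.52, all under the floor. Among the 19 tested genes of interferon receptors and signalling 11 had higher and 8 lower means, with a median of 0.02. None had an unadjusted limma p under 0.05. In 3 (15.8%, beside 6.62% of all genes tested) the knockout values all lay above, and in 0 after quantile normalization. None lay wholly below, beside 5.19% of all genes tested. Ifngr1, a receptor chain for interferon-gamma, had -0.04, Ifnar1, one for type I interferon, 0.15, and the kinase Jak1 -0.07. Ifngr2, the other chain of the interferon-gamma receptor, read 6.14, 6.19 and 6.18 against 6.20, 6.45 and 6.44 in knockout livers (log2 difference 0.19). The gap between the groups was 0.004, and a dimmer tested probe set of Ifngr2 had -0.002 with overlapping groups.

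The interferon-gamma list holds GTPases of the Gbp, Irg and Tgtp families, which attack the vacuoles of microbes inside cells, and their regulators. Of 17 measured members 16 had higher means, and in 10 the 3 knockout values all lay above the 3 wild-type values, beside 6.21% of all 17097 genes with dim ones included (4.96% lay all below). The filter kept 11 of the 17, of which 11 had higher means, 10 did not overlap and 9 had an unadjusted limma p under 0.05. Their median difference was 0.51. Irf8, a transcription factor, passed the filter with a wild-type mean of 4.08 just under it, so the counts over the 11 partly follow from the filter. No member passed the adjusted threshold, the lowest adjusted limma p being 0.504.

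Tgtp1, a GTPase of the Tgtp family, differed most in this list. It read 5.17, 4.93 and 5.08 in wild-type livers and 7.36, 6.63 and 6.12 in knockout livers. The groups lay about a unit apart, and knockout liver 1 was highest. Tgtp1 was 3.12-fold higher in the means (log2 difference 1.64, SE 0.316, limma adjusted p = 0.504).

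Gbp3, a guanylate-binding protein, read 4.47, 4.29 and 4.91 against 6.39, 5.80 and 5.001 in knockout livers (log2 difference 1.17, SE 0.297). Knockout liver 3 stood only 0.09 above the highest wild-type liver. Gbp2 had 0.80 and Irgm2 0.84, both without overlap, though for Irgm2 the gap between the groups was 0.055 and the difference without knockout liver 2 was 0.47. Without knockout liver 3 the log2 difference of Gbp2 was 1.07 and its limma adjusted p 0.0393. Irgm1, which keeps the other GTPases inactive, read 7.31, 7.63 and 7.52 against 7.93, 8.15 and 7.77, and its difference was 0.47. Irf1, the transcription factor that carries much of the response, read 7.49, 7.50 and 7.37 against 7.86, 7.95 and 7.99. It was the even one among these, with all 3 knockout livers within 0.13 of each other and a difference of 0.48. Outside the list, Ifi47, another such GTPase, read 7.50, 7.68 and 7.56 against 8.32, 8.78 and 8.26 (log2 difference 0.88, SE 0.194, limma adjusted p = 0.708). Gbp2b read 6.41, 4.72 and 4.54 in knockout livers and 3.80, 3.94 and 3.83 in wild-type livers. Its means in the other 3 groups lay under the floor of 4.08, so it was tested only through the group in which it is high, and its difference lends the others no support. Probe sets of near-identical family members may not tell them apart, as for Tgtp1 and its copy or Gbp2 and Gbp2b.

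The type I list holds antiviral genes. Of 33 measured members 30 had higher means and 8 did not overlap, all of them above. Among the 23 tested 21 had higher means and 7 lay wholly above (30.4%, beside 6.62% of all genes tested). In 10 the unadjusted limma p was under 0.05, and the median of the 23 was 0.23. Of these 23, Trim30a passed the filter with a wild-type mean of 4.066, under the floor, and a knockout mean of 4.393, with overlapping groups. The count of higher means and the median over the 23 thus partly follow from the filter. Ifit3, which binds viral RNA together with Ifit1, read 6.05, 6.08 and 6.27 in wild-type livers and 7.55, 6.83 and 6.85 in knockout livers. All knockout livers were higher, by at least 0.57 over the highest wild-type liver, and Ifit3 was 1.92-fold higher in the means (log2 difference 0.94, SE 0.167, limma adjusted p = 0.311). Ifit1 read 4.17, 4.70 and 5.61 against 6.17, 5.995 and 6.07 (log2 difference 1.25, SE 0.338). Here the wild-type livers spread over 1.44 and the knockout livers over 0.17. Irf7, which amplifies type I interferon, had 0.62 and Usp18, which dampens it, 0.84, the latter with overlapping groups because knockout liver 3 was at 5.53. Oas1g, a sensor of double-stranded RNA, had 0.04, and Mx2, a GTPase against viruses, -0.20. Ifi27, a small interferon-induced protein of no list here, read 8.85, 9.10 and 8.74 against 9.76, 9.65 and 9.62 (log2 difference 0.78, SE 0.177), and its second probe set had 0.76.

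The promoters of these genes were read next. The 250 bases before the RefSeq start (GRCm38.p6) were searched on both strands for the core of the interferon-stimulated response element, GAAANNGAAA, and for the gamma-activated site, TTCNNNGAA. Among 27025 genes with a window, 3.46% hold the first and 8.13% the second. Of the 8335 tested genes with a window, 2.99% and 7.16% do. Of the tested interferon-gamma members 9 of 11 had a window, and 7 of these 9 hold the response element core and 6 the gamma-activated site. Of the type I members 16 of 23 had a window, and 5 and 1 of the 16 hold them. Both lists were made of genes that respond to interferon, so a high share may follow from that choice. It says nothing about the genotype difference. A match describes letters and is no evidence of binding, and the windows of Cxcl9, Lcn2 and Pml hold neither motif. The windows of Ifit3 (chr19:34583279-34583528, plus strand), Gbp3 (chr3:142559794-142560043, plus strand, 1 of its 2 listed starts) and Tgtp1 (chr11:48992247-48992496, minus strand) are shown because these genes are described above liver by liver and hold a motif. They are written 5′ to 3′ on the strand of the gene and end at the base before the start. Capitals mark the motifs, which appear as their reverse complement where they lie on the opposite strand, as in Ifit3 and Gbp3.
Ifit3: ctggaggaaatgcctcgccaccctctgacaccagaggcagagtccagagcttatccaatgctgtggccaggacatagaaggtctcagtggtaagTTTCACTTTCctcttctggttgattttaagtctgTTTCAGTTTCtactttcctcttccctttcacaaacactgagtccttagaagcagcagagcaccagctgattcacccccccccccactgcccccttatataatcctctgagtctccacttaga
Gbp3: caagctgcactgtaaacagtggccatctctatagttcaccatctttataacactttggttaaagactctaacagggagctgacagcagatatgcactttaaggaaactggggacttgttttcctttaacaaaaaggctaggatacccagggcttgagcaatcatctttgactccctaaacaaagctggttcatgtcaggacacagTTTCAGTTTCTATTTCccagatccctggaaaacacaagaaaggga
Tgtp1: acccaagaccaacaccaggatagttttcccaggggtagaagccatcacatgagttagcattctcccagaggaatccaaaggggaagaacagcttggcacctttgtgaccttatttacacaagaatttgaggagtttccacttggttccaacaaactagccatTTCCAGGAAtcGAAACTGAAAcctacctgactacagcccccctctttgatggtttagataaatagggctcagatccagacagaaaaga
In Ifit3 both cores begin 156 and 122 bases before the start. In Gbp3 they begin at 45 and 39 bases and overlap. In Tgtp1 the gamma-activated site begins at 88 bases and the response element core at 77, next to each other.

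Among the products of MHC class I, which shows peptides to cytotoxic T cells, 13 of 13 tested genes had higher means. In 4 of them (30.8%) the knockout values all lay above the wild-type values. Of all genes tested 51.5% had higher means and 6.62% lay wholly above. The median of the 13 was 0.13, with no unadjusted limma p under 0.05. H2-D1 read 10.70, 10.57 and 10.56 against 11.13, 10.91 and 10.80 (log2 difference 0.34, SE 0.175). H2-K1 had 0.12 and the immunoproteasome subunit Psmb8 0.26, the latter with overlap. The differences are small and knockout liver 1 was highest in 8 of the 13, where it was highest in 43.2% of all genes tested. MHC class II genes, which are made by macrophages and other antigen-presenting cells, had a median of 0.39 over 6 tested, but 5 of the 6 overlapped. H2-Ab1 read 6.34, 5.78 and 6.47 against 7.64, 6.80 and 5.94, so that knockout livers 1 and 2 lay above and 3 within the wild-type range.

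Of 24 measured chemokines 17 had higher means and 4 lay wholly above, beside 6.21% of all 17097 genes. Of the 12 tested 7 had higher means and 2 lay wholly above (16.7%, beside 6.62% of all genes tested). Their median was 0.05, so the difference lay in a few members. Of the 12, 1 passed the filter with a wild-type mean under the floor and a knockout mean not under it. The counts over the 12 thus partly follow from the filter. Cxcl9, which interferon-gamma induces and which draws T cells through the receptor Cxcr3, read 6.004, 5.34 and 5.60 in wild-type livers and 9.19, 7.98 and 6.85 in knockout livers. The 3 knockout livers differed from each other by over 2 units, and each was higher than every wild-type liver. It had the largest difference of all genes tested, 5.14-fold (log2 difference 2.36, SE 0.49, limma adjusted p = 0.643). Cxcl10 and Cxcl11, the other ligands of Cxcr3, were dim and not tested. Cxcl10 read 3.65, 3.26 and 3.51 against 5.06, 4.80 and 4.26 (log2 difference 1.23), and Cxcl11 3.89, 4.04 and 3.79 against 4.58, 4.22 and 4.26 (0.45). For all 3 ligands no knockout liver reached into the wild-type range. Cxcl1, which draws neutrophils, read 6.68, 6.32 and 5.93 against 7.005, 7.009 and 7.42 (log2 difference 0.84, SE 0.337). Among the T cell markers Cd3e had 0.15 and Cd8a 0.05, both with overlap, and 7 of 10 measured T cell markers were too dim to test. Cxcr3 itself was dim, at 3.04 to 3.17 and 3.26 to 3.49.

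**Figure D2:**
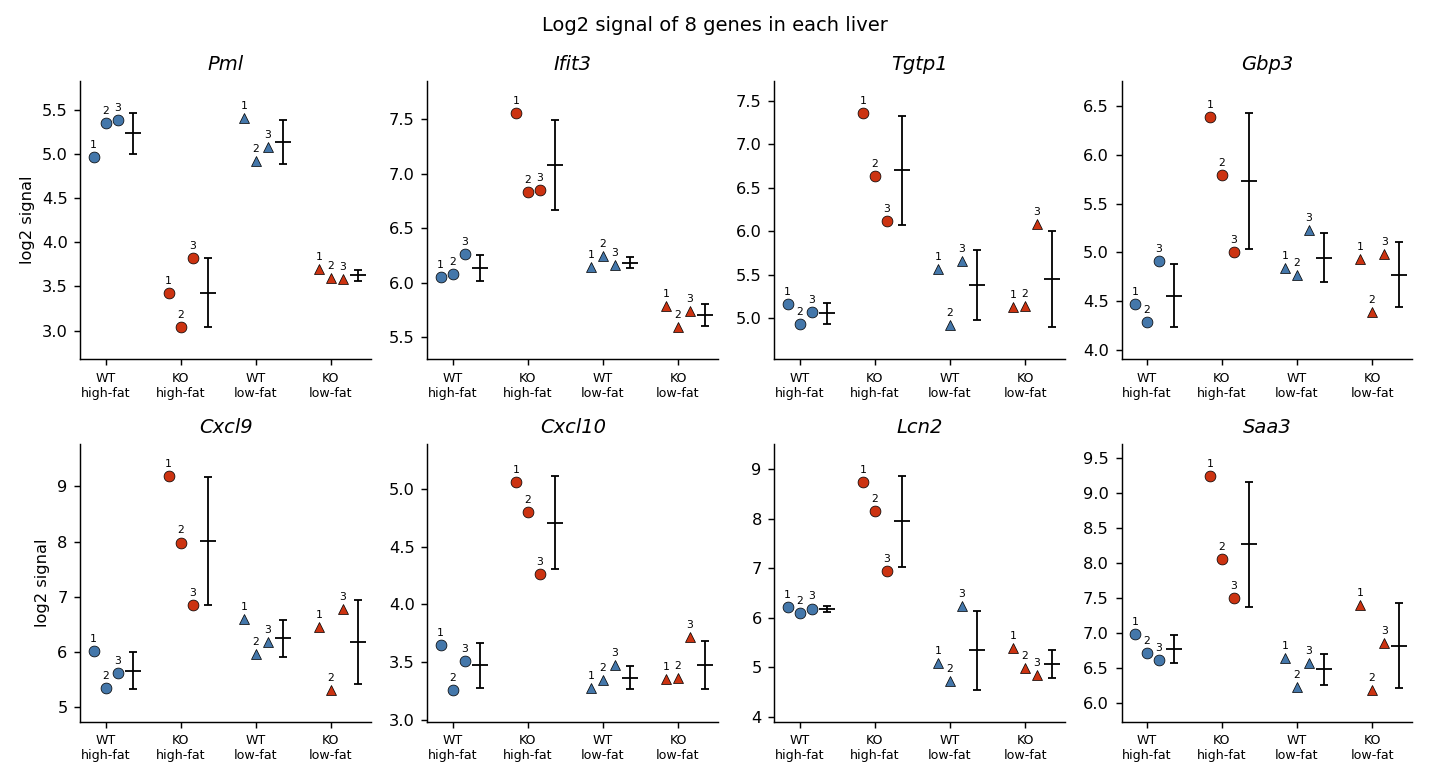
Log2 signal (y axis, a range of its own in each panel) of 8 genes in each liver, by genotype and diet, with replicate numbers above the points and the mean with SD (n = 3) beside each group. Circles are high-fat and triangles low-fat livers. In 7 of the 8 genes the high-fat knockout livers lie above the high-fat wild-type livers, with liver 1 highest. Pml lies below.

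Acute phase and innate plasma proteins ranged from a few genes with large differences to many with small ones. Of 24 tested 18 had higher and 6 lower means, with a median of 0.07. Wholly above lay 8 (33.3%) and wholly below 1 (4.17%), beside 6.62% and 5.19% of all genes tested. On the higher side 7 had an unadjusted limma p under 0.05, beside 2.25% of all genes tested. Lcn2, the iron-withholding lipocalin, read 6.22, 6.10 and 6.18 in wild-type livers and 8.74, 8.16 and 6.94 in knockout livers. The wild-type livers were within 0.13 of each other and every knockout liver was higher (log2 difference 1.78, 3.43-fold, SE 0.417, limma adjusted p = 0.799). Saa3, a serum amyloid A of macrophages and other cells, read 6.99, 6.72 and 6.62 against 9.25, 8.06 and 7.50 (log2 difference 1.49, SE 0.373). Saa1 and Saa2, the liver forms, had 0.82 and 0.92, and probe sets of such close copies may share signal. Apcs, the amyloid P component, read 11.4, 11.6 and 11.4 against 11.7, 11.8 and 11.9 (log2 difference 0.32, SE 0.0927), and the haem carrier Hpx 13.0, 13.0 and 13.0 against 13.1 in each knockout liver (0.14). C-reactive protein, Crp, had 0.08. Il1r1, the receptor of interleukin 1, went the other way, at 7.76, 8.58 and 8.42 against 7.60, 6.97 and 6.73 (log2 difference -1.15, SE 0.357, limma adjusted p = 0.996).

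Lcn2 is also a gene of neutrophils. Of 7 tested neutrophil markers it was the only one with an unadjusted limma p under 0.05. Csf3r, the receptor of their growth factor, had 0.29, S100a9 -0.02 and the dim S100a8, at 2.89, 3.01 and 2.92 against 3.33, 3.26 and 3.44, had 0.40.

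**Figure D3:**
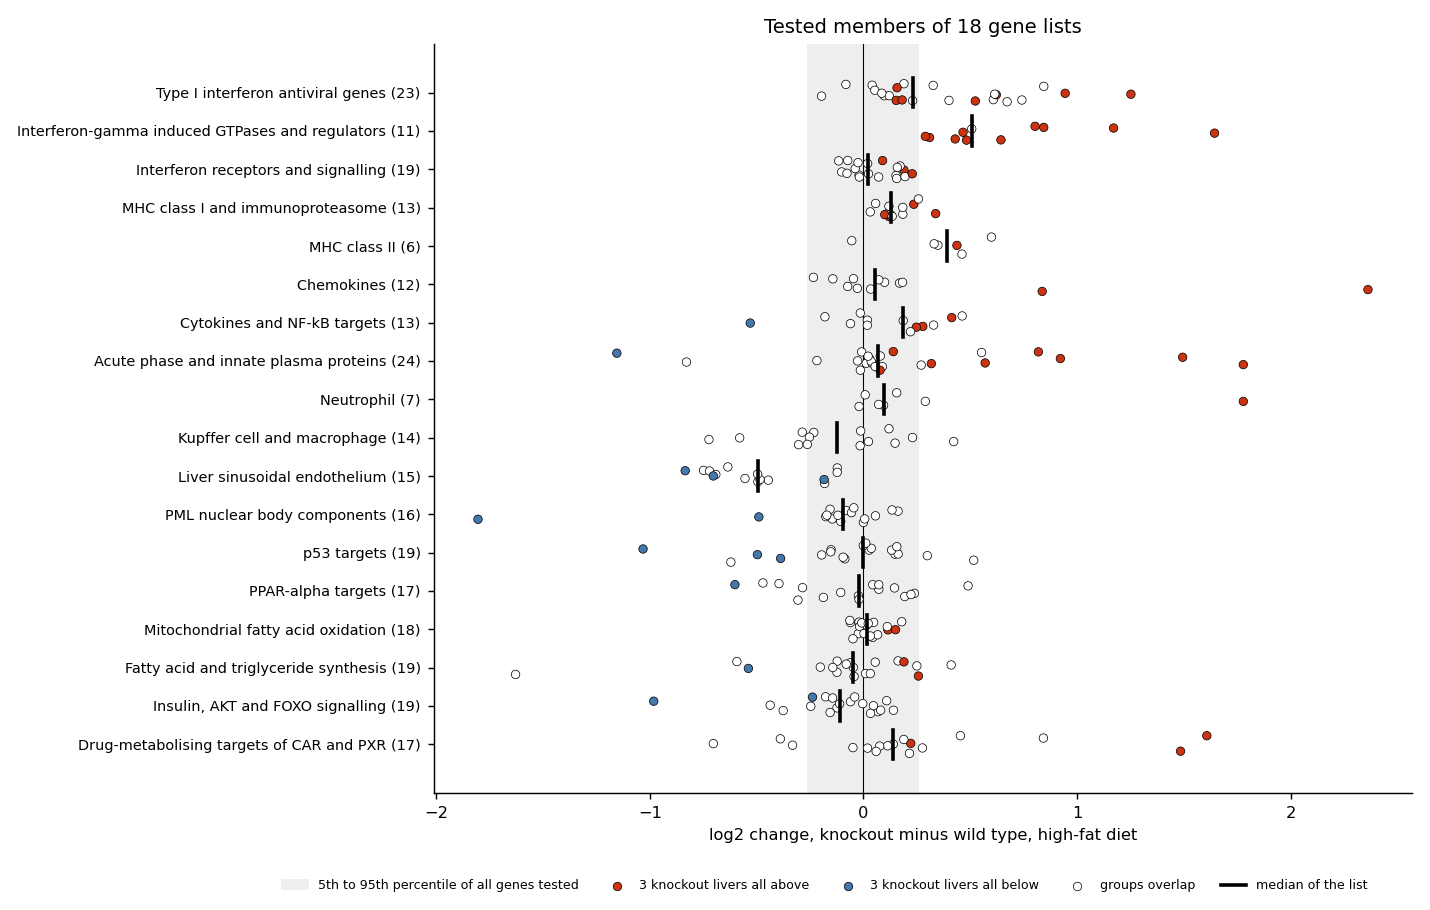
Log2 difference of knockout minus wild type on the high-fat diet (x axis) for each tested member of 18 gene lists, 1 point a gene, with the median as a bar and the 5th to 95th percentile of all genes tested in grey. Red points have all 3 knockout livers above, blue points all below; the interferon-gamma list has 10 red points of 11.

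The 3 knockout livers differed among themselves in how far the interferon genes stood out, and in the levels of markers of other cells. Relative to the wild-type mean, the interferon-gamma list averaged 0.87, 0.80 and 0.40 in knockout livers 1, 2 and 3, against -0.07 to 0.04 in the wild-type livers. Of its 11 tested members 11, 11 and 10 lay above every wild-type liver, where 31.3%, 22.7% and 26.7% of all genes did. For the type I list the averages were 0.55, 0.42 and 0.15, with 17, 15 and 8 of 23 above. Liver 3 was the lowest of the knockout livers in 17 of these 23 genes and in 13 of 24 acute phase genes, where it was lowest in 26.4% of all genes tested.

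Markers of Kupffer cells and other macrophages followed the same order. Their 14 tested members averaged 7.13, 6.73 and 5.80 in knockout livers, against 6.58 to 6.82 in wild-type livers, and C1qb, a complement chain of macrophages, read 7.61, 6.71 and 5.33. In knockout liver 3, 85.7% of the 14 lay below every wild-type liver, where 22.5% of all genes did. The interferon-gamma list averaged 0.40 above the wild-type mean in that liver. In such bulk samples fewer cells of a type and less RNA per cell cannot be told apart. The part of macrophages in the differences of Saa3, Cxcl9 and MHC class II was not tested.

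Sinusoidal endothelial markers were low in 2 of the 3 knockout livers. Of 15 tested members 15 had lower means, 5 with an unadjusted limma p under 0.05, and the median was -0.50. Wholly below lay 3 of them (20%, beside 5.19% of all genes tested). In knockout livers 2 and 3 all 15 lay below every wild-type liver (100% in each, where 31.4% and 22.5% of all genes did), and in liver 1 20% did. The angiopoietin receptor Tek read 6.001, 5.84 and 5.88 against 5.73, 4.84 and 5.04 (log2 difference -0.70, SE 0.222), and the scavenger receptor Stab1 7.07, 7.16 and 6.96 against 7.001, 6.16 and 6.37 (-0.55). Gpr182, a chemokine scavenger, had -0.83. Knockout liver 1 had the highest interferon averages, and its endothelial average was 0.03 above wild type. Il1r1 was also lowest in livers 2 and 3, and its relation to the endothelial markers was not tested.

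**Figure D4:**
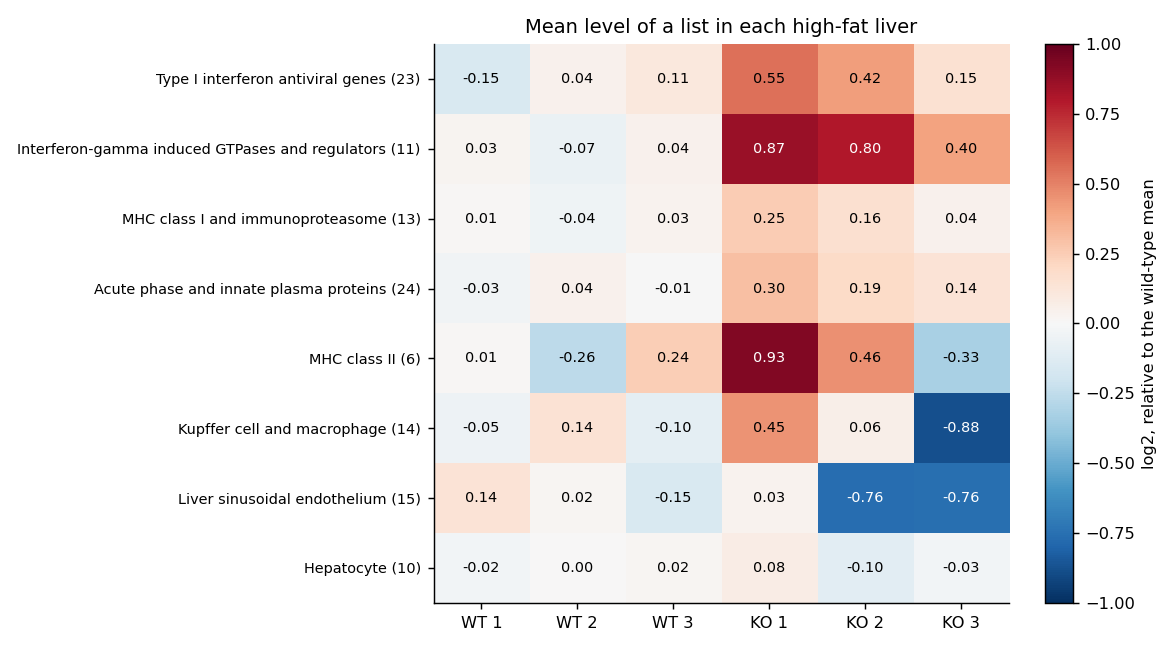
Mean log2 level of the tested members of 8 lists (rows, with the number of members) in each high-fat liver (columns), relative to the mean of the 3 wild-type livers, as colour and number. The interferon-gamma row reads 0.87, 0.80 and 0.40 in the knockout livers, the endothelial row 0.03, -0.76 and -0.76, and the macrophage row 0.45, 0.06 and -0.88.

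Targets of p53 were divided. Of 19 tested 9 had higher and 10 lower means, with a median of -0.001. Yet 3 (15.8%) lay wholly below, beside 5.19% of all genes tested. Ccng1, a cyclin that p53 induces, read 8.17, 8.19 and 8.42 against 7.78, 7.80 and 7.71, with knockout livers within 0.095 of each other and all below (log2 difference -0.50, SE 0.0979, limma adjusted p = 0.504). Its 2 dimmer probe sets had -0.26 and -0.43 and did not overlap either. The cell cycle inhibitor Cdkn1a read 5.25, 5.67 and 6.48 against 4.98, 4.66 and 4.66 (-1.03, SE 0.451), and the exonuclease Aen had -0.39.

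The title given to the series is about PPAR and fatty acid oxidation. PPAR-alpha is the receptor by which fasting switches on fatty acid oxidation, and on the high-fat diet its 17 tested targets had 8 higher and 9 lower means, a median of -0.02 and no unadjusted limma p under 0.05. Ppara itself read 10.7, 10.8 and 10.7 against 10.6, 10.5 and 10.7 (log2 difference -0.11, SE 0.0975). Plin5, which coats lipid droplets, was the 1 target wholly below, at 9.24, 9.54 and 9.62 against 9.04, 8.57 and 8.98 (-0.60, SE 0.36). Fgf21, a fasting hormone, read 7.06, 7.29 and 7.07 against 6.15, 6.34 and 7.52, with livers 1 and 2 below and 3 above. Mitochondrial fatty acid oxidation had 11 of 18 higher and a median of 0.02, with the electron carrier subunit Etfa at 0.15 and the dehydrogenase Acadm at 0.11, both wholly above. Synthesis of fatty acids and triglycerides had 8 of 19 higher and a median of -0.05. In it the desaturase Scd1 had 0.41 with overlap, and the carboxylase Acacb read 5.78, 5.67 and 5.75 against 5.32, 4.94 and 5.32 (-0.54). On the low-fat diet all 17 PPAR-alpha targets had lower means in knockout livers. Their median there was -0.32, beside 0.005 for all genes tested. Relative to the high-fat wild-type mean, they averaged -0.729 to -0.035 in low-fat wild-type livers. In low-fat knockout livers they averaged -0.998 to -0.611, so the groups overlapped.

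Insulin, AKT and FOXO signalling had 13 of 19 lower means and a median of -0.11. On the lower side 4 had an unadjusted limma p under 0.05, beside 2.2% of all genes tested. The kinase Akt1 read 7.64, 7.84 and 7.78 against 7.43, 7.48 and 7.64 (log2 difference -0.24, SE 0.104), close to touching. A dimmer tested probe set of Akt1 had -0.02 with overlapping groups. Igfbp1, which insulin represses, read 10.0, 9.87 and 10.5 against 9.68, 8.28 and 9.54 (-0.98, SE 0.442), with liver 2 far below the others. Of 22 measured targets of the drug receptors CAR and PXR 16 had higher means, beside 52.8% of all 17097 genes. Of the 17 tested 13 had higher means, and the median was 0.14. On the higher side 4 had an unadjusted limma p under 0.05, beside 2.25% of all genes tested. Of the 17, 1 passed the filter with a wild-type mean under the floor and a knockout mean not under it. The counts over the 17 thus partly follow from the filter. Relative to the wild-type mean, this list averaged 0.36, -0.14 and -0.22 in wild-type livers 1 to 3. In knockout livers it averaged 0.33, 0.24 and 0.17, so wild-type liver 1 was the highest. Cyp2c39 read 9.62, 8.17 and 7.26 against 10.0, 9.73 and 10.1 (1.61, SE 0.627), where the wild-type livers were spread and the knockout livers close together. Cyp2c38, a near copy, had 1.48 and Cyp3a11, the main drug oxidase, 0.84 with overlap.

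Other genes stood out by a small p and belong to none of the lists described above. The red cell markers form a list of their own and are given whatever their p. Col13a1, a transmembrane collagen, read 4.87, 5.01 and 4.61 against 4.01, 4.19 and 3.97 (log2 difference -0.77, SE 0.132, limma adjusted p = 0.311), with all knockout livers lower. Taf2, a subunit of the general transcription factor TFIID, read 6.97, 7.84 and 7.32 against 6.45, 6.38 and 6.73 (-0.86). The splicing kinase Srpk1 read 6.80, 6.76 and 6.91 against 6.29, 6.19 and 6.45 (-0.51). A dimmer tested probe set of Srpk1 had -0.06 with overlapping groups. Derl3, which helps to remove misfolded proteins from the endoplasmic reticulum, had -1.30 and Igfbp2, a carrier of insulin-like growth factors, -0.32. Among red cell genes Hba-a1, an alpha globin, read 12.4, 12.7 and 12.5 against 12.3, 11.6 and 11.9 (-0.63), and the brightest probe set of the beta globin Hbb-b2 also had -0.63. A dim probe set of Hbb-b2 had 0.30, and near-identical globins may share signal. The other red cell markers tested did not go with them, Alas2, which starts haem synthesis in red cells, at 0.03 and the membrane anion exchanger Slc4a1 at 0.11, both with overlap, so that the median of the 3 tested markers was 0.03. On the higher side were Apol9a, an interferon-inducible apolipoprotein L, at 0.77 and Sucnr1, the receptor of succinate, at 0.77. Ly6e, an interferon-inducible surface protein, read 9.19, 9.18 and 9.12 against 10.71, 9.92 and 9.33 (0.82), and without knockout liver 1 its difference was 0.46.

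The same genotypes on the low-fat diet show whether these differences were there without the fat load. On that diet the interferon-gamma list had a median of 0.004 and the type I list -0.05, and the high-fat and low-fat comparisons share no arrays. The low-fat knockout livers did not go one way, since relative to the high-fat wild-type mean the interferon-gamma list averaged -0.13, -0.28 and 0.31 in livers 1, 2 and 3, against -0.02 to 0.11 in low-fat wild-type livers. Low-fat knockout liver 3 was thus above its controls and not far below high-fat knockout liver 3 at 0.40. Low endothelial and macrophage markers were found with low fat too, where knockout liver 2 had an endothelial average of -0.63 and a macrophage average of -1.53 on the same scale. Of the 15 endothelial markers 14 had lower means in knockout livers on the low-fat diet, with a median of -0.15 and none wholly below. Ifit3 on that diet read 6.15, 6.24 and 6.16 in wild-type livers and 5.79, 5.595 and 5.74 in knockout livers, so the knockout livers were the lower ones there. The difference between its 2 genotype effects was 1.42 (SE 0.236, limma adjusted p = 0.366), the smallest p of all genes in that test. For Cxcl9 the difference between the diets was 2.43 (SE 0.693), for Lcn2 2.05 (SE 0.59) and for Tgtp1 1.57 (SE 0.447), each with a limma adjusted p of 0.802.

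No gene passed in the test of the difference between diets (0% of 10258 at an adjusted limma p under 0.05, with 585 genes at an unadjusted p under 0.05). An unadjusted p under 0.05 with a more positive effect on the high-fat diet was found for 7 of 11 interferon-gamma and 5 of 23 type I genes, beside 3% of all genes (2.7% had a more negative one). This test contains the high-fat difference by which these lists already stood out. The counts are thus no separate evidence of a diet effect. Saa3 had a difference between the diets of 1.16 (SE 0.527). Ccng1 had -0.51 with low and -0.50 with high fat (difference 0.01, SE 0.139), and Cdkn1a -0.95 and -1.03. Pml had -1.51 and -1.80 in the same order. The brighter probe set of Srpk1 had -0.51 on the high-fat and 0.43 on the low-fat diet, a difference of -0.94 (SE 0.161, limma adjusted p = 0.366).

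**Figure D5:**
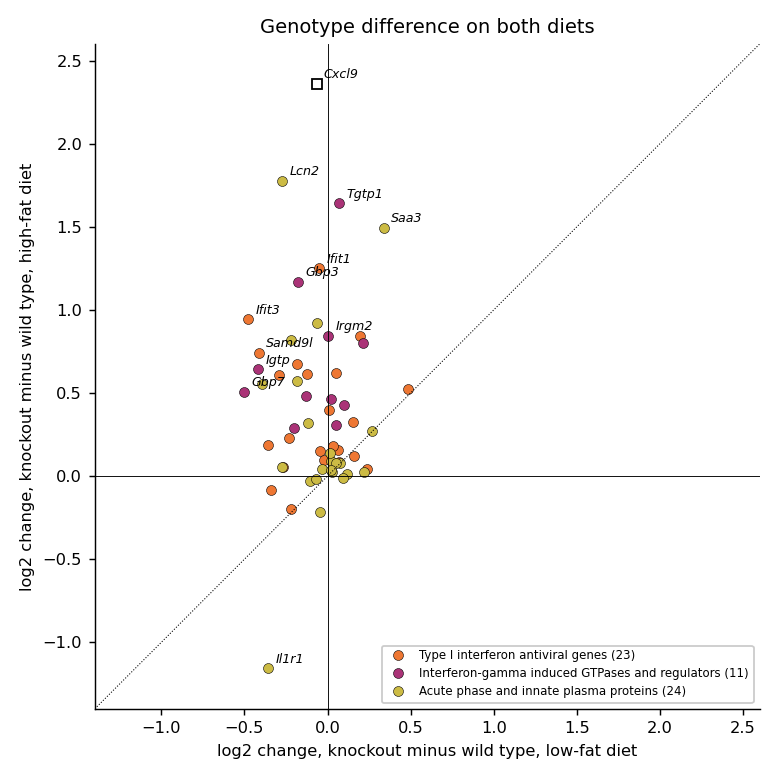
Log2 difference of knockout minus wild type with low fat (x axis) and with high fat (y axis) for tested members of the type I, interferon-gamma and acute phase lists, with Cxcl9 as an open square and equal differences along the dotted line. Ifit3, Lcn2 and Tgtp1 lie above that line, with Cxcl9 at -0.06 and 2.36, and Il1r1 lies below it.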

How the data were processed

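Total RNA from liver was labelled with biotin and read on Affymetrix arrays, per the labels. The deposited values are log2 signals made with RMA by the authors, per the submitters' processing notes, which name no version. This method commonly gives all arrays one distribution and shrinks differences of dim probe sets. No further scaling was applied.

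Control probe sets (104) and those with several genes (551) or no listed gene (15588) were left out. Of 28898 identifiers 28689 were found in RefSeq, and 0 symbols changed. The probe set with the highest mean stood for a gene, and the 40% of genes with the lowest mean were left out. The model was limma 3.58.1 under R 4.3.3 (variance trend), fitted as 4 group means over 12 arrays, with 8 residual degrees of freedom, so that the low-fat arrays share in the estimate of the spread. P-values were adjusted by Benjamini-Hochberg over all genes tested (threshold 0.05). The script was tested on simulated data.

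Same-numbered high-fat arrays of the 2 genotypes had deviations that correlated at 0.134, 0.0723 and 0.113, and the labels give no pairing, so numbers were not used as a block. Genes and gene lists were chosen with earlier results of these data known, so lists are described by counts and medians and not tested. Named are Pml, Ifit3, Cxcl9 and Lcn2, the 20 smallest p, the 15 largest differences each way at an unadjusted p under 0.01 without overlap, up to 6 members of a list by p, and other members needed to describe a list. Alternatives for scaling, filter, probe sets, variance, block, weights and left-out arrays were run.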

Additional observations from a re-analysis of the deposited data

How the results depend on the processing

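The count of genes past the adjusted limma threshold was 0 with a filter at 60%, 0 with probe sets averaged and 0 with only the 2 groups compared. In the first and second of these Pml was filtered out as dim, and in the last it had -1.80 (adjusted p = 0.2). With probe sets averaged the log2 change of Pml was -1.01. The unadjusted limma count was 805 with no filter, 287 with the filter at 60%, 755 with every probe set by itself and 1112 with array weights. With the replicate number as a replicate block, 1 gene passed (Pml, -1.80) and 524 had an unadjusted limma p under 0.05; it changed no call. Each knockout array correlated best with the wild-type array of its number, a hint from the data and not from the design.

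Leaving out 1 array at a time gave 1 to 2 genes for the high-fat comparison (Gbp2 joined Pml without knockout liver 3), 255 to 638 unadjusted (255 without wild-type liver 2) and 0 to 1 for the difference between diets (1 without knockout low-fat liver 3). List medians ranged from 0.152 to 0.311 for type I genes, 0.485 to 0.682 for interferon-gamma genes, 0.071 to 0.8 for MHC class II, -0.801 to -0.38 for endothelium, -0.001 to 0.085 for interferon receptors, -0.140 to 0.013 for p53 targets and -0.032 to 0.054 for mitochondrial oxidation.

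Without knockout livers 2 and 3, an alternative chosen after seeing the data, the medians were 0.456 for type I genes, 0.049 for interferon receptors, 1.085 for MHC class II, 0.049 for endothelium and -0.061 for mitochondrial oxidation. Liver 1 was kept for its endothelial level and also has the highest interferon averages, so these medians describe that liver and test nothing. The interferon receptor median was 0.009 with median centring, 0.047 with the filter at 60% and 0.071 with the mean of probe sets. The filter at 60% gave -0.061 for cytokines and 1.778 for neutrophils, where few genes were left, and no filter gave -0.087 for p53 targets. The causes of these shifts were not tested. Single genes moved by over 1.5 times on leaving out 1 array included Cyp3a11 (0.483 to 1.148), Cyp2c39 (1.063 to 2.241), Igfbp1 (-1.238 to -0.54), Scd1 (0.188 to 0.651), H2-Ab1 (0.071 to 1.027) and Irf8 (0.149 to 0.587), none of them called. Of 2870 values of single genes under an alternative, 31 had the opposite sign. Dim genes such as Cxcl10 lie where the signal over background limits what can be measured.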

Other observations

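Several genes with the largest lower means in knockout livers had them from livers 2 and 3 alone. They were chosen after their values were seen. Lpin1, a phosphatidate phosphatase that also acts as a coactivator, read 10.64, 11.41 and 11.35 in wild-type livers and 10.89, 8.47 and 9.15 in knockout livers on the high-fat diet. Pfkfb3, which makes the activator of glycolysis, read 7.59, 8.16 and 8.15 against 7.51, 6.11 and 5.92. Ppp1r3c, a glycogen-targeting phosphatase subunit, read 10.30, 10.68 and 10.59 against 10.58, 8.25 and 8.87. In all 3 genes knockout liver 1 was near the wild-type livers and the other 2 were well below.

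Fkbp5 and Zbtb16, known glucocorticoid-induced genes, were also highest in knockout liver 1, Fkbp5 at 8.90, 7.07 and 7.59 and Zbtb16 at 8.62, 5.65 and 7.31 in knockout livers 1 to 3. Knockout liver 1 was the highest of the 3 in 43.2% of all genes tested. The high-fat wild-type livers read 8.68, 9.15 and 9.21 for Fkbp5 and 7.73, 8.84 and 9.22 for Zbtb16. A wild-type liver on the low-fat diet was about as low as knockout livers 2 and 3. Number 2 of that group had Lpin1 at 9.02, Pfkfb3 at 5.46, Ppp1r3c at 8.92, Fkbp5 at 7.15 and Zbtb16 at 7.21. These are the same 2 knockout livers in which the endothelial markers were low, and no relation between these was tested. None of these genes passed the limma test, with adjusted p = 0.996 for each.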
